A study of Mus musculus with 2 samples.

Results

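The 59 Rab genes measured in these hypothalamic microglia are the subject here. They were all genes of the deposited tables whose symbol is Rab followed by a number and, where present, an isoform letter and digit. The rule took 59 of 31053 genes and left out genes only named after a Rab, such as binding partners. The rule itself reads only the symbol. Rab proteins are small GTPases that mark the membranes of a cell. Each is loaded with GTP by an exchange factor (GEF), binds effectors that tether or move vesicles, is switched off by a GTPase-activating protein (GAP), and is drawn off the membrane by a GDP-dissociation inhibitor (GDI). In microglia, the macrophages of the brain, this machinery serves receptor recycling, secretion, and the uptake and digestion of debris.

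The cells came from several pooled young wild-type mice, and the genotype was the same in both samples. Plasma protein tagged with a dye had been injected 20 hours before the sort. Microglia without the dye formed the plasma-negative library and microglia with it the plasma-positive library, so the study asked how cells that had taken up plasma protein differ from their neighbours. Both were made with a droplet method that counts captured RNA molecules by unique molecular identifier (UMI) near the transcript's 3′ end. The dye sort defines the groups, the mice cannot be told apart within a pool, and no library from uninjected animals was analysed here.

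After filtering, the plasma-negative library kept 9860 cells (34534518 UMIs) and the plasma-positive library 10362 cells (41984977 UMIs). Median depth was 3270.5 and 3753 UMIs per cell, and the median share of UMIs from mitochondrially encoded genes was 1.08% and 1.27%. All 11 microglia markers were detected, each in at least 64.4% of the cells without dye and 68.0% of those with dye. Together they reached 32504 and 30954 counts per 1000000 UMIs of the library (CPM, the scale of every level below). Each of the other lineages' marker lists summed to between 0.0476 and 61.0 CPM. Single markers on 3 of these lists were found in more cells. Cd79b of the B cell list was in 14.3% of cells without dye and 16.4% with dye. Mag of the oligodendrocyte list was in 9.83% and 11.3%, and Pecam1 of the endothelial or mural list in 6.71% and 6.94%. No marker of the remaining lists was in more than 2.615% of cells. The libraries differed elsewhere: Apoe, a lipid carrier, stood at 171 CPM in the plasma-negative and 1190 CPM in the plasma-positive library, and a list of 27 interferon response genes summed to 586 and 939 CPM. With 1 library per group no test was possible and no difference has a replicate check. Dye uptake, the sort and the library preparation cannot be told apart. All intervals are exact 95% intervals that cover counting error only.

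The products of the Rab genes differ in their carboxyl end, where the lipid anchor is attached to cysteines. The last 27 coding bases, stop codon included, are shown for some members: abundant ones, close relatives of these, and others with differences described below. This stretch shows how alike related members are. Cysteine codons are in capitals.
Rab14: ccccagagagaaggcTGTggcTGCtag
Rab8b: agtttcttccgcTGTtctctgctttga
Rab8a: agcttcttccggTGCagtctcctgtga
Rab2a: cagcaggcagggggaggcTGCTGTtga
Rab10: acgggctggaagagcaagTGCTGCtga
Rab1a: aagcagtcaggtggaggcTGCTGCtaa
Rab1b: aagcctgctagcggtggcTGCTGCtag
Rab11a: aaggtgcagTGCTGTcagaacatctaa
Rab11b: aagctgcagTGCTGCcagagcctgtga
Rab7: gcctccgcagaaagcTGCagtTGTtga
Rab5a: gccagaagccagTGTTGTagtaactga
Rab5b: aacaagagccagTGTTGTagcaactga
Rab5c: agccggagccagTGCTGCagcaactga
Rab20: cagactagatccgggTGTTGTgcctaa
Rab3a: ccacctcatcaggatTGTgccTGCtga
Rab43: gcggagagctggggcTGTgggTGCtga
Rab39: aagcccagaaaagagTGCttcTGTtga

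These sequences are from the GENCODE M21 transcripts on the mouse build GRCm38, in which all 59 members were found. Over the 59 coding ends, 20 held a pair of cysteine codons separated by 1 codon at the very end, as in Rab14, Rab7 and Rab39, and 15 held an adjacent pair there, as in Rab1a and Rab2a. In 3, 6 and 6 ends the pair was followed by 1, 2 and 3 further codons, as in Rab20, the Rab5 genes and the Rab11 genes. The remaining 9, among them Rab8a and Rab8b, held a cysteine at the fourth codon from the end and none after it. The most abundant member, Rab14, lies at chr2:35180205-35201120 on the minus strand. The 2 members at 50 CPM or more with the largest differences between the libraries, Rab5c and Rab39, lie at chr11:100715009-100738215 and chr9:53684110-53706232, both on the minus strand.

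The family as a whole took a similar share of RNA in both libraries. Its 59 genes summed to 101606 UMIs, or 2942 CPM, in the plasma-negative library and 124147 UMIs, or 2957 CPM, in the plasma-positive library. These are 0.294% and 0.296% of all UMIs, a ratio of 1.005 with an interval of 0.997 to 1.013. With TMM factors (trimmed mean of M-values) the ratio was 1.032, and with mitochondrial and ribosomal protein genes left out of the total 1.019, both outside that interval. Of the 59 members, 53 had UMIs in both libraries, 3 only in the plasma-positive library and 3 (Rab17, Rab38 and Rab44) in neither. A level of 10 CPM or more in at least 1 library, the minimum for a comparison, was reached by 36 members, and 50 CPM by 21 of these. After each cell was thinned at random to 1000 UMIs, which left out 796 and 603 shallower cells, at least 1 Rab UMI was held by 94.1% of cells in the plasma-negative and 94.0% in the plasma-positive library, with a median of 3 per cell in both. Unthinned, the median was 9 and 11 Rab UMIs per cell.

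**Figure D1:**
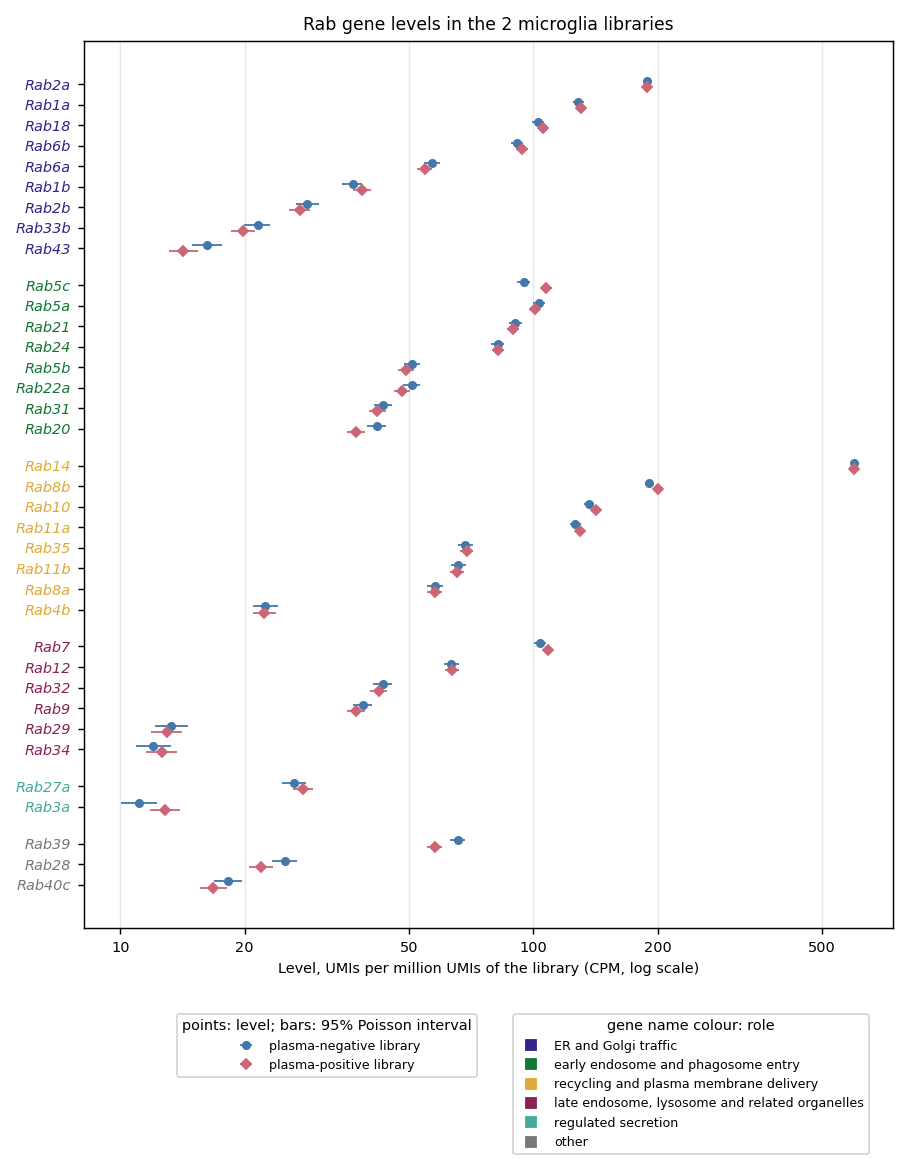
Level of the 36 Rab genes at 10 CPM or more (log axis, CPM), with circles for the plasma-negative and diamonds for the plasma-positive library and bars for the 95% Poisson interval of the count. Genes are grouped by role, and Rab14 at 599 and 597 CPM stands apart to the right of all others.

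Rab14, which works between Golgi, endosomes and phagosomes, was the most abundant member by a wide margin. It stood at 599 CPM (interval 591 to 607) without dye and 597 CPM (interval 590 to 605) with dye, and alone gave 20.4% and 20.2% of the family's UMIs. The 10 most abundant members together gave 60.3% and 61.3%. A Rab14 UMI was found in 44.1% and 43.8% of thinned cells, and in 78.0% and 81.9% of cells at their full depth. No cell type that lacks Rab genes was at hand as a background for such shares.

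The same 7 genes led in the same order in both libraries: Rab14, Rab8b, Rab2a, Rab10, Rab1a, Rab11a and Rab7. Neighbours in this order whose counting intervals overlapped were Rab1a and Rab11a in both libraries, and Rab8b and Rab2a in the plasma-negative library. The first exchange of places came below Rab7, where Rab5c had rank 10 in the plasma-negative and rank 8 in the plasma-positive library. Levels of different genes are set side by side here without a length correction, since each molecule is counted once at its 3′ end, but capture can differ between genes.

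Between the libraries, none of the 36 comparable members differed by 1.2-fold or more in either direction. In thinned cells Rab3a (0.30) and Rab5c (0.27) passed it, beside 3.33% of all genes higher and 6.75% lower. By the mean over cells Rab3a (0.29), Rab43 (-0.29) and Rab40c (-0.28) did, beside 1.58% of all genes higher and 3.71% lower. Without these changes, 1.32% of all 8355 genes at the same minimum were at least 1.2-fold higher in the plasma-positive library. At least 1.2-fold lower were 2.31%. The members' log2 ratios of plasma-positive to plasma-negative ran from -0.19 to 0.21, with a median of -0.01 and quartiles of -0.05 and 0.04. The median over all genes was -0.04, with quartiles of -0.11 and 0.04. A log2 ratio within 0.1 of 0 was found for 28 of 36 members (77.8%) and for 60.8% of all genes at that minimum. At 50 CPM or more these figures were 19 of 21 members (90.5%) and 64.7% of genes, and 0.678% and 0.650% of the 3540 genes were past 1.2-fold in the 2 directions. The ratio was above 1 for 15 members and below 1 for 21, beside 35.7% and 64.3% of all genes, and at 50 CPM for 11 and 10, beside 39.0% and 61.0%. The split over the 36 depends on the scaling. It was 24 and 12 with TMM factors, under which 4171 of all genes lay above and 4177 below 1. It was 21 and 15 when mitochondrial and ribosomal protein genes were left out of the total. The shares within 0.1 of 0 depend on the scaling too, and are not given here under TMM factors. Those factors moved the median log2 ratio of all genes from -0.04 to -0.00 and that of the members from -0.01 to 0.03.

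**Figure D2:**
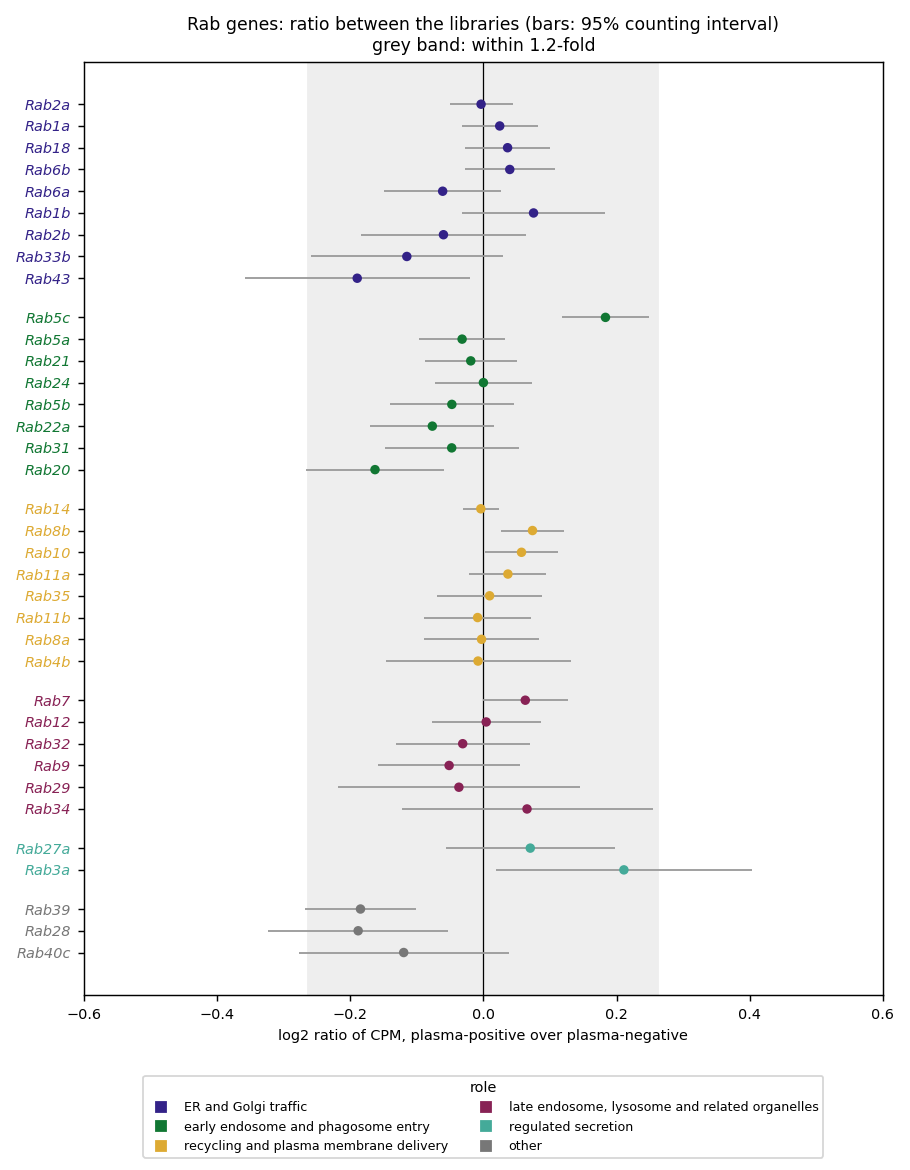
log2 ratio of CPM, plasma-positive over plasma-negative, for the 36 Rab genes at 10 CPM or more, grouped by role, with 95% counting intervals. The grey band marks ratios within 1.2-fold, and every point lies inside it, from -0.19 for Rab43 to 0.21 for Rab3a.

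**Figure D3:**
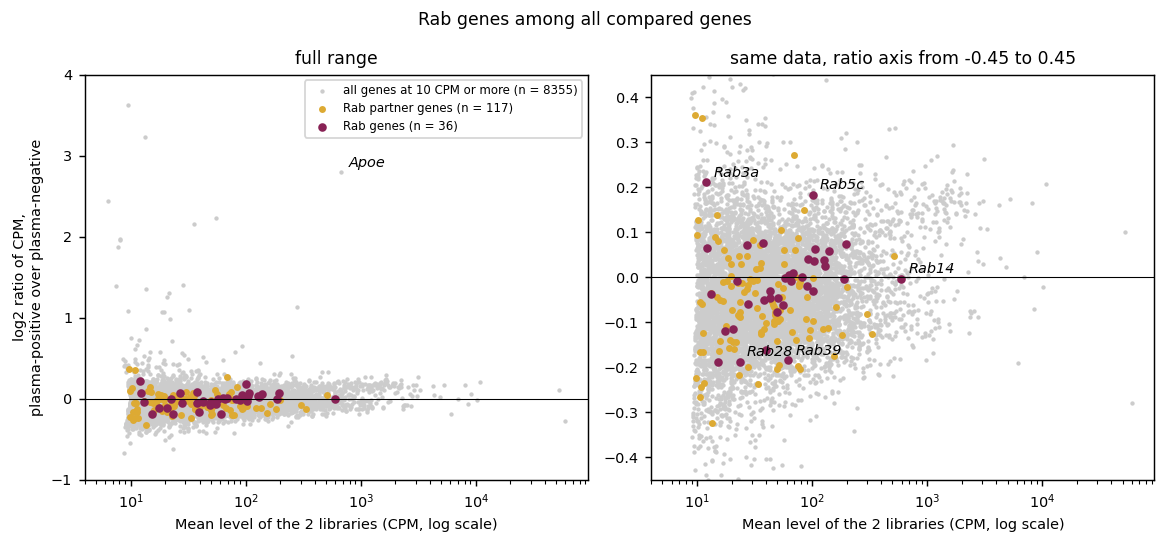
log2 ratio of CPM against the mean level of the 2 libraries (log axis) for all 8355 compared genes (grey), 117 partner genes (yellow) and 36 Rab genes (purple), over the full range on the left and from -0.45 to 0.45 on the right. The Rab genes lie close to 0 while Apoe lies at 2.80.

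Members that act between the endoplasmic reticulum (ER) and the Golgi summed to 671 CPM in the plasma-negative and 673 CPM in the plasma-positive library. Rab2a, a Golgi and ER-Golgi regulator, was the highest of them at 189 and 188 CPM, a log2 ratio of -0.00 (-0.05 to 0.04). Rab1a, needed for transport from ER to Golgi, stood at 129 and 131 CPM. Its close relative Rab1b stood at 36.5 and 38.4 CPM, a log2 ratio of 0.08 (-0.03 to 0.18). Thus Rab1a gave 77.9% and 77.3% of the UMIs of the pair. Rab18, which acts on the ER and lipid droplets, was at 103 and 106 CPM. The Golgi regulators Rab6b and Rab6a were at 91.4 and 93.9 CPM and at 56.9 and 54.6 CPM, so that Rab6b, the isoform best known from neurons, was the more abundant in both libraries by 1.61 and 1.72 times. Rab2b was at 28.4 and 27.2 CPM. The lowest log2 ratio of all comparable members was that of Rab43, also assigned to ER and Golgi traffic, with 16.2 CPM in the plasma-negative and 14.2 CPM in the plasma-positive library (-0.19, -0.36 to -0.02). Of the 11 members in this role, 9 were comparable, with 4 ratios above 1 and 5 below.

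Members of early endosomes and phagosome entry summed to 557 and 556 CPM, but the balance among the 3 Rab5 genes differed. Rab5 proteins drive the fusion of incoming vesicles with early endosomes. Rab5c stood at 94.8 CPM (interval 91.5 to 98.1) without dye and 107.6 CPM (interval 104.5 to 110.8) with dye. The log2 ratio of 0.18 (0.12 to 0.25) was the highest among the 21 members at 50 CPM or more. Rab5a went from 103 to 101 CPM (-0.03, -0.10 to 0.03) and Rab5b from 50.9 to 49.2 CPM (-0.05, -0.14 to 0.05), where Rab5a overlaps another gene on the opposite strand. With every cell thinned to 1000 UMIs the Rab5c ratio was 0.27, past 1.2-fold, and that of Rab5b -0.21. Rab5a was therefore the first Rab5 isoform in the plasma-negative library, with 52.1% (50.9% to 53.3%) of the UMIs of Rab5a and Rab5c. In the plasma-positive library Rab5c was first, and the Rab5a share was 48.4% (47.4% to 49.5%).

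The Rab5c difference was then followed through cells of like depth and like mitochondrial share, because the libraries differed in both. In 4 bins of UMIs per cell the log2 ratio of Rab5c was 0.09, 0.24, 0.07 and 0.24, from the shallowest to the deepest. In 4 bins of the mitochondrial share it was 0.30, 0.15, 0.19 and 0.07, from the lowest to the highest share. It was above 0 in every bin, and its counting interval reached 0 in the bins with 0.09, in both with 0.07, and in no other. Rab5c was picked for its high ratio over all of these cells, and the bins divide the same cells. They therefore add no independent support.

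The other early endosome members varied less or in the other direction. Rab21, which travels with integrins, was at 90.5 and 89.3 CPM, and Rab24, linked to autophagy, at 82.0 CPM in both libraries. Rab22a and Rab31, related proteins of endosomal sorting, stood at 50.8 and 48.1 CPM and at 43.4 and 41.9 CPM. Rab20, a regulator of phagosome maturation in macrophages, was lower in the plasma-positive library, at 37.3 CPM (interval 35.5 to 39.2) against 41.7 CPM (interval 39.6 to 43.9) in the other. Its log2 ratio was -0.16 (-0.27 to -0.06). Rab20 is also among the genes that overlap another gene on the opposite strand.

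Recycling and delivery to the plasma membrane held the largest summed level, 1274 CPM in the plasma-negative and 1293 CPM in the plasma-positive library. Rab14, at 599 and 597 CPM, was its largest single contributor, and the size of the lead depends on placing Rab14 in this role. Rab8b and Rab8a direct vesicles from the Golgi to the cell surface. Rab8b stood at 191 CPM (interval 186 to 196) without dye and 201 CPM (interval 197 to 205) with it, for a log2 ratio of 0.07 (0.03 to 0.12), and Rab8a at 57.8 and 57.7 CPM. Rab8b thus exceeded Rab8a by 3.30 and 3.48 times. Rab10, an exocytic Rab known for glucose transporter delivery, was at 136 and 142 CPM (0.06, 0.00 to 0.11). Rab11a and Rab11b, which define recycling endosomes, were at 126 and 130 CPM and at 65.8 and 65.4 CPM. Rab35, a regulator of fast recycling, was at 68.5 and 68.9 CPM. Rab4b, also of the fast route, was at 22.4 and 22.3 CPM and its relative Rab4a at 4.84 and 6.22 CPM, so Rab4a gave 17.7% (15.3% to 20.3%) and 21.8% (19.5% to 24.2%) of the pair's UMIs.

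Late endosomes, lysosomes and related organelles were represented by 10 members that summed to 275 and 278 CPM. Rab7, which governs the fusion of late endosomes and phagosomes with lysosomes, led them at 104 CPM (interval 101 to 107) without dye and 109 CPM (interval 105.4 to 112) with it, for a log2 ratio of 0.06 (-0.00 to 0.13). Rab12, linked to the degradation of membrane receptors, was at 63.4 and 63.6 CPM. Rab32, a regulator of lysosome-related organelles, was at 43.2 and 42.2 CPM. Its close relative Rab38 had no UMI in either library, with exact intervals that reach 0.107 and 0.0879 CPM. Rab9, of the route from late endosomes to the Golgi, was at 38.6 and 37.3 CPM. The counting intervals of Rab7, Rab12, Rab32 and Rab9 all included a log2 ratio of 0, and the sparse Rab7b of the same role is described with the members below 10 CPM.

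Regulated secretion was the smallest of the named roles, with 42.6 CPM in the plasma-negative and 46.8 CPM in the plasma-positive library. The log2 ratio of the sum was 0.13 (0.04 to 0.23), the highest of the 6 role groups, and 2 of its 9 members were comparable. Neuron markers, which summed to 84 and 187 UMIs, a ratio of 1.83 (1.41 to 2.40), moved in the same direction, and their part in this sum and in Rab3a was not tested. Rab27a, which docks secretory lysosomes and exosome-bearing bodies, was at 26.4 and 27.7 CPM (0.07, -0.06 to 0.20). Rab3a, the Rab of synaptic vesicles, was at 11.1 CPM (383 UMIs) and 12.8 CPM (539 UMIs), the highest log2 ratio of the 36 at 0.21 (0.02 to 0.40), and 0.30 in thinned cells. Like Rab20, Rab3a overlaps another gene on the opposite strand. Rab27b and Rab3d, the relatives of Rab27a and Rab3a, stood at 0 and 0.0476 CPM and at 1.51 and 1.79 CPM.

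The remaining group, of varied or less settled function, had the lowest log2 ratio of the role groups. Its sum was 122 CPM in the plasma-negative and 110 CPM in the plasma-positive library, a log2 ratio of -0.15 (-0.21 to -0.09), and the 3 comparable members were below 1, beside 64.3% of all genes. Rab39 gave 2264 of the group's 4213 UMIs in the plasma-negative and 2422 of 4607 in the plasma-positive library. The ratio of the sum thus depends on placing Rab39 in this group. Rab39, described in phagosome maturation and autophagy, stood at 65.6 CPM (interval 62.9 to 68.3) without dye and 57.7 CPM (interval 55.4 to 60.03) with it. Its log2 ratio was -0.18 (-0.27 to -0.10). Over the 4 bins of depth it was -0.01, -0.15, -0.23 and -0.28, and over the 4 bins of mitochondrial share -0.15, -0.17, -0.13 and -0.19. The interval included 0 in the shallowest bin and in the bins of lowest and highest mitochondrial share. Rab39 was picked for its low ratio over the same cells, so these bins add no independent support. Rab28, known from cilia, was at 24.99 and 21.9 CPM (-0.19, -0.32 to -0.05), and Rab40c, part of a ubiquitin ligase, at 18.2 and 16.8 CPM (-0.12, -0.28 to 0.04). Rab39b and Rab40b, the relatives of Rab39 and Rab40c, were below 0.5 CPM in both libraries, at 0.116 and 0.167 CPM and at 0.174 and 0.453 CPM.

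**Figure D4:**
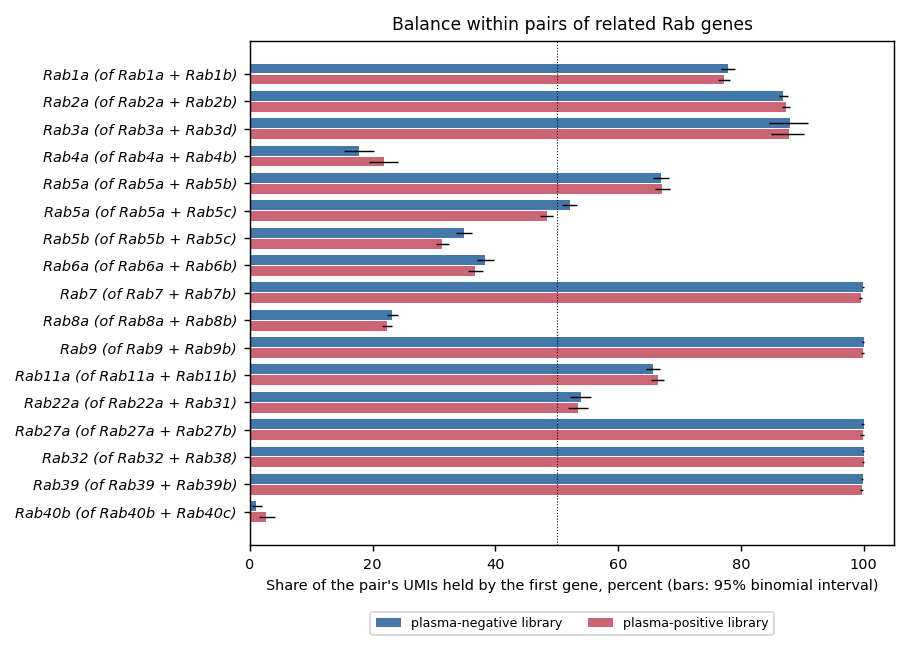
Share of the UMIs of a pair of related Rab genes held by the first gene of the pair, in percent, for the plasma-negative (blue) and plasma-positive (red) libraries, with 95% binomial intervals and a dotted line at 50%. Rab1a, Rab2a, Rab8b and Rab11a dominate their pairs in both libraries, and only the pair of Rab5a and Rab5c crosses the line, from 52.1% to 48.4%.

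Most pairs of related genes kept their balance between the libraries. Rab2a exceeded Rab2b by 6.65 and 6.92 times, Rab11a exceeded Rab11b by 1.92 and 1.98 times, and Rab5a exceeded Rab5b by 2.03 and 2.05 times. In 5 pairs 1 gene held at least 99.5% of the UMIs in both libraries: Rab7 over Rab7b, Rab9 over Rab9b, Rab27a over Rab27b, Rab32 over Rab38 and Rab39 over Rab39b. No comparable member shared a run of 60 bases with another member within the last 500 bases of its transcript. The ends of Rab8a, Rab27a and Rab33b held a stretch that is also found in many other genes, and those of Rab4b and Rab43 one shared with an overlapping or related gene model. In 12 of the 36 an exon overlapped one on the opposite strand. These were Rab2b, Rab3a, Rab5a, Rab6a, Rab7, Rab10, Rab11b, Rab20, Rab22a, Rab24, Rab33b and Rab40c. The use of strand in counting is not given in the sources used here, and these levels are uncertain to that extent. In 5 of the 36, Rab4b, Rab11a, Rab18, Rab27a and Rab43, an exon overlapped one on the same strand. Their levels are uncertain to that extent whatever the strand use.

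The 23 members below 10 CPM included 20 with at least 1 UMI. Of these, Rab3c and Rab33a are named here because of their values. Rab3c, a secretory Rab of neurons, was found in 11 plasma-negative cells (13 UMIs, 0.376 CPM) and 38 plasma-positive cells (46 UMIs, 1.10 CPM). A neuron marker UMI was present in 4 of the 11 and 7 of the 38 cells, against 0.710% and 1.47% of all cells of those libraries. The 8 neuron markers together had 84 and 187 UMIs (2.43 and 4.45 CPM), each found in at most 0.482% of cells of a library, and their part in the Rab3c values was not tested. Rab7b, a relative of Rab7 in the route from endosomes to the Golgi, had 2 and 22 UMIs in 2 and 19 cells. A border-associated macrophage marker was present in none of the 2 and in 3 of the 19 cells, against 1.04% and 1.64% of all cells. The 7 markers of that lineage summed to 3.62 and 6.19 CPM, led by Mrc1 in 0.842% and 1.28% of cells, and their part in the Rab7b values was not tested. Median depth was 4398 and 4377 UMIs in the Rab3c cells and 4813 and 6205 UMIs in the Rab7b cells. Over all cells it was 3270.5 and 3753 UMIs. The part of depth in these marker shares was not tested. Rab33a had 1 and 13 UMIs, and Rab40b 6 and 19. Ratios of such counts are wide: the interval for Rab3c ran from 1.55 to 5.87 around 2.91, and for Rab7b from 2.22 to 79.4 around 9.05. The other members of this group with UMIs in both libraries lay between 0.0579 and 7.43 CPM. Rab15, Rab9b and Rab27b, with 3, 1 and 2 UMIs, were found only in the plasma-positive library. For 0 UMIs in the other library the exact interval still reaches 0.107 CPM.

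Scatter between cells was examined next. In thinned cells the variance of the UMI count divided by its mean (Fano factor, 1 for pure counting scatter) lay between 0.983 and 1.07 for the 21 members at 50 CPM or more, with a median of 1.03 in both libraries. The median over all genes at that minimum was 1.04. In the plasma-negative library 24.1% of genes, and in the plasma-positive library 20.4%, exceeded the highest member. The family's level varied with depth and mitochondrial share in both libraries. Cells of 500 to 2000 UMIs held 2530 and 2512 Rab CPM in the plasma-negative and plasma-positive libraries, against 3089 and 3008 in cells of 8000 or more. Cells with under 0.5% mitochondrial UMIs held 3088 and 3108 Rab CPM, against 2644 and 2760 in cells with 2% or more. The ratio between the libraries was 0.993, 1.000, 1.000 and 0.974 over the depth bins and 1.006, 1.010, 1.014 and 1.044 over the mitochondrial bins. The interval left out 1 in the deepest bin (0.974) and in the bins with 1.014 (1.002 to 1.026) and 1.044 (1.018 to 1.070).

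Since Apoe set the libraries apart most plainly among the lists examined, cells with 3 or more Apoe UMIs per 1000 were compared with cells without any, inside each library. There were 154 against 8333 such cells in the plasma-negative and 622 against 7949 in the plasma-positive library. The family summed to 2708 against 2934 CPM in thinned plasma-negative cells, a log2 ratio of -0.12 (-0.26 to 0.02), and to 2490 against 2971 CPM in thinned plasma-positive cells, a log2 ratio of -0.25 (-0.33 to -0.18). The median of 1766 genes at 100 CPM or more was -0.12 and -0.19 in the same cells. With their full counts the family values were -0.140 (-0.215 to -0.066) and -0.242 (-0.275 to -0.209), and both intervals leave out 0. Median depth was 3478.5 against 3371 UMIs and 4351.5 against 3826 UMIs, and the median mitochondrial share 1.48% against 1.04% and 1.69% against 1.21%. The part of depth and mitochondrial share in these ratios was not tested.

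From the full counts of the same cells, 15 of the 21 members at 50 CPM or more were lower in the Apoe cells of the plasma-negative library and 21 of 21 in those of the plasma-positive library. The background in the same contrasts was 68.8% and 77.9% of 3540 genes. Rab14 stood at 482 against 606 CPM in the plasma-negative library (-0.33, -0.51 to -0.16) and at 526 against 610 CPM in the plasma-positive library (-0.21, -0.29 to -0.14). Rab1a was lower in both (-0.63, -1.08 to -0.21, and -0.34, -0.51 to -0.18), as was Rab39 (-0.82, -1.51 to -0.20, and -0.40, -0.66 to -0.15). Rab5a gave -0.48 (-0.95 to -0.04) and -0.53 (-0.73 to -0.33). Rab5c gave -0.22 (-0.68 to 0.20) and -0.07 (-0.24 to 0.10), intervals that include 0. The part of the Apoe cells in the Rab5c difference between the libraries was not tested. Rab11a alone had intervals off 0 in opposite directions, with 0.43 in the plasma-negative and -0.30 in the plasma-positive library. Its relative Rab11b had the same directions, with 0.49 (0.06 to 0.89) and -0.21 (-0.44 to 0.009), where the second interval includes 0.

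**Figure D5:**
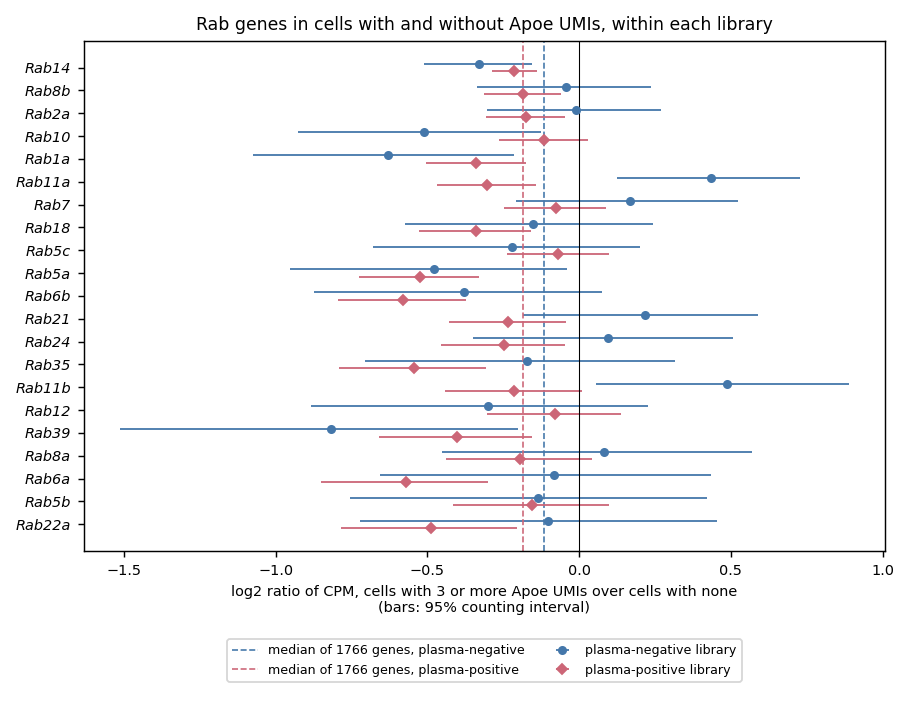
log2 ratio of CPM between cells with 3 or more Apoe UMIs per 1000 and cells with none, within the plasma-negative (circles) and plasma-positive (diamonds) libraries, for the 21 Rab genes at 50 CPM or more, with 95% counting intervals. Dashed lines mark the medians of 1766 genes at -0.12 and -0.19, and all 21 diamonds but only 15 of the circles lie below 0.

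Cells with interferon transcripts differed less. With 3 or more UMIs per 1000 from the interferon list, 286 against 5570 plasma-negative cells gave a family log2 ratio of -0.04 (-0.14 to 0.06). In the plasma-positive library, 765 against 5437 cells gave -0.10 (-0.16 to -0.03). The medians of 1766 genes were -0.01 and -0.07. With full counts of the same cells the family values were -0.06 (-0.11 to -0.004) and -0.12 (-0.15 to -0.09). Both intervals leave out 0, and the medians of 1766 genes were then -0.03 and -0.08. From full counts, 13 and 17 of the 21 members were lower, beside 56.8% and 71.0% of genes. Cells with cell cycle transcripts were few, 15 and 35. Their log2 ratios of -0.81 (-1.44 to -0.25) and -0.23 (-0.55 to 0.07) rest on 25 and 87 Rab UMIs. The plasma-negative value was -0.10 (-0.42 to 0.20) with cells thinned to 2000 UMIs and -0.18 (-0.38 to 0.02) from full counts, intervals that include 0. The plasma-positive value was -0.06 (-0.25 to 0.12) at 2000 UMIs. From full counts it was -0.16 (-0.30 to -0.04), which leaves out 0. The medians of 1766 genes from full counts were -0.16 and -0.14. From full counts, 14 and 15 of the 21 members were lower, beside 57.0% and 56.6% of genes.

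The partners that load, unload and escort Rab proteins were examined from 4 fixed lists with 151 genes, of which 117 were comparable. The GDI, escort and prenylation list of 8 genes, all comparable, summed to 978 and 971 CPM. Gdi2, the widely expressed GDI, stood at 506 and 523 CPM, and Rabac1 (which helps to free Rabs from GDI) at 311 and 294 CPM. Of the GEF list, 40 of 49 genes were comparable, and 33 of them had a ratio below 1. Its most abundant genes were Dennd4a, a GEF for Rab10, at 348 and 319 CPM (-0.13), Rab3il1, a GEF for Rab8, at 201 and 198 CPM, and Hps4, part of the GEF for Rab32 and Rab38, at 190 and 174 CPM (-0.13). The list summed to 2680 and 2539 CPM, a log2 ratio of -0.08 (-0.09 to -0.07). Of the GAP list, 26 of 35 genes were comparable and 19 were below 1. Tbc1d5, a GAP for Rab7, stood at 128 and 118 CPM, Tbc1d23 at 99.03 and 91.3 CPM, and Tbc1d9 at 80.1 and 88.8 CPM. Of the 60 effectors 44 were comparable and 31 were below 1, with Acap2, an effector of Rab35, at 165 and 158 CPM, the Golgi tether Gcc2 at 92.3 and 89.5 CPM, and Rab11fip2, an effector of Rab11, at 84.6 and 73.4 CPM (-0.20, -0.28 to -0.13). The kinase Lrrk1 exceeded Rab11fip2 in the plasma-positive library, with 77.1 and 76.2 CPM. These counts below 1 are to be read beside 64.3% of all genes, a share that depends on the scaling (4171 genes above and 4177 below 1 with TMM factors).

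Past 1.2-fold were 5 of the 117 partners, 3 higher and 2 lower in the plasma-positive library, against the background of 1.32% and 2.31% given above. Bicd2, the adaptor that couples Rab6 vesicles to dynein, was at 63.0 and 76.1 CPM (0.27, 0.19 to 0.35). Myo5a, the motor that Rab11 and Rab27a vesicles use on actin, was at 9.61 and 12.3 CPM (0.35, 0.15 to 0.56), and Plin3, a Rab9 partner and lipid droplet protein, at 8.43 and 10.8 CPM (0.36, 0.14 to 0.58). The lower ones were Ankrd27, a GEF for Rab21 and partner of Rab32, with 519 and 504 UMIs (-0.32, -0.50 to -0.14), and Tbc1d7, also a subunit of the TSC complex, at 11.6 and 9.60 CPM (-0.27, -0.47 to -0.06). Over the 117 partners the median log2 ratio was -0.06, with 28 above 1 and 89 below, beside a median of -0.04 and a share of 64.3% below 1 over all genes. With TMM factors the split was 49 and 68 and the median -0.02, beside 4171 and 4177 of all genes.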

How the data were processed

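Droplet single-cell RNA sequencing of 2 sorted microglia libraries was analysed. The authors deposited whole-number UMI counts for each gene in each cell, not normalized, made with Cell Ranger 6.1.2 per the file headers (3.0.1 per the submitters' processing notes). Build, annotation and strand use are not given in the sources used here. Cell barcodes were not used here, so barcodes shared between libraries were not counted. GENCODE M21 (GRCm38) gave gene positions and coding ends only.

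Cells with at least 500 UMIs, 300 genes and at most 10% mitochondrial UMIs were kept; 18 plasma-negative and 28 plasma-positive cells were removed. Doublets were not removed; an alternative drops the highest-UMI cells. Counts were summed per library and divided by its total (CPM, no pseudocount). Genes at 10 CPM or more in at least 1 library were compared by a rule of size (1.2-fold). Intervals are 95%, exact Poisson for levels, Clopper-Pearson for shares and conditional binomial for ratios. Shares of cells, Fano factors and cell classes used cells thinned to 1000 UMIs. edgeR 4.0.16 gave TMM factors only (R 4.3.3). Python 3.11.15, numpy 2.4.6, scipy 1.17.1 and pandas 2.3.3 were used, and the ratio step was tested on simulated data.

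The members and lists were chosen with earlier results of these data known. Named with values were members at 50 CPM or more, the 5 highest and 5 lowest log2 ratios at 10 CPM or more, and both genes of a related pair with 1 at 10 CPM or more. Of each partner list, the 3 most abundant genes by the mean of the libraries and those past 1.2-fold were named. One gene that this rule takes is not reported here. Alternatives changed the scaling, the cell and level minimums, the thinning, the mean over cells, and the class definition.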

Additional observations from a re-analysis of the deposited data

Results flagged for a closer look

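Rab11a, which defines recycling endosomes, had opposite ratios in the 2 libraries between cells with 3 or more Apoe UMIs per 1000 and cells with none. The log2 ratio was 0.43 (0.12 to 0.73) in the plasma-negative library, from 171 against 127 CPM and 95 UMIs in the smaller class. It was -0.30 (-0.47 to -0.14) in the plasma-positive library, from 107 against 132 CPM and 328 UMIs. The counting intervals lay on opposite sides of 0. Its relative Rab11b had the same directions, with 0.49 (0.06 to 0.89) in the plasma-negative and -0.21 (-0.44 to 0.009) in the plasma-positive library. The difference between the libraries was not tested, since each is a single library, and 21 genes were looked through.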

How the results depend on the processing

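No paired analysis was possible because the groups hold 1 library apiece, and no replicate could be left out. Of 335 values under alternatives, 305 stayed within their interval or within 1.5 times, 30 moved and 0 were labelled reversed. That label did not take in every change of sign near 0. With TMM factors the log2 ratio of Rab14 went from -0.004 to 0.035, and the median over the comparable members from -0.006 to 0.033. For single members 245 of 252 stayed within their counting interval. The family ratio was 1.032 with TMM factors, which shift the median log2 ratio of all genes from -0.04 to -0.00, and 1.019 without mitochondrial and ribosomal protein genes in the total. Members at least 1.2-fold higher numbered 2 in thinned cells (Rab3a 0.30, Rab5c 0.27), 1 by the mean over cells (Rab3a 0.29) and 2 at a minimum of 1 CPM (Rab4a 0.36, Rab3c 1.54). Members at least 1.2-fold lower numbered 2 by the mean over cells (Rab43 -0.29, Rab40c -0.28) and 1 at 1 CPM (Rab19 -0.41). Thinning moved 5 members out of their interval. Partners 1.2-fold lower numbered 1 with TMM, without mitochondrial and ribosomal protein genes, with 1000 UMIs per cell and with at most 5% mitochondrial UMIs, 8 in thinned cells, 4 by the mean over cells and 0 at 50 CPM. Partners 1.2-fold higher numbered 1 by the mean over cells, 1 at 50 CPM and 6 at 1 CPM. In thinned cells 3.33% of all genes were at least 1.2-fold higher and 6.75% lower, and by the mean over cells 1.58% and 3.71%. No such share is given here for the minimum of 1 CPM. The share of cells with a Rab14 UMI was 78.0% (plasma-negative) and 81.9% (plasma-positive) without thinning, and 67.6% and 68.3% at 2000 UMIs. The log2 ratio of the 15 plasma-negative cell cycle cells was -0.10 at 2000 UMIs and -0.18 from full counts, an alternative chosen after seeing the data. The cause was not tested. Depth gives a median counting interval of 0.09 on either side of a comparable member's log2 ratio, narrower for abundant members.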
